A study of Homo sapiens with 9 samples.

Results

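Translation initiation factors are the proteins that bring the small ribosomal subunit, the initiator tRNA and the messenger RNA together at a start codon. The genes described here are the 58 symbols of the expression table that start with EIF and a digit from 1 to 6, with the eIF2 kinases (EIF2AK1 to EIF2AK4) and the eIF4E-binding proteins (EIF4EBP1 to EIF4EBP3) among them, out of 27800 symbols in all. Of the 58 members, 52 reached at least 1 TPM (a level corrected for transcript length and scaled to the same sum in each library) in at least 3 of 9 libraries and were tested, among 14144 tested genes. The other 6 were EIF3IP1 and EIF4E1B, which were listed at 0 in each library, and EIF1AX-AS1, EIF1B-AS1, EIF4E3 and EIF5AL1, which stayed at 1.57 TPM or below.

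The libraries came from PANC-1, an established human pancreatic tumour cell line, and were labelled day 0, day 2 and day 14, with 3 libraries for each day. The expression table marks each of the 9 as WT, and no other genotype is given. The growth protocol is worded the same for all 9: DMEM with glucose at 2.5 mM, serum at 0.5% and amino acids at 20% of their usual level, named as the deprivation of nutrients and oxygen, with no additional treatment. The labels name neither an oxygen level nor the medium in which the day 0 cells were kept, and there were no undeprived cells at day 2 or day 14, so deprivation, time in culture and any handling that went with the day cannot be told apart. The labels do not say whether the 3 libraries of a day were separate cultures, so p-values measure the spread between these libraries, which may be technical.

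In the cell, eIF2 carries the initiator tRNA to the small subunit and is recharged with GTP by the exchange factor eIF2B. The kinases HRI (EIF2AK1), PKR (EIF2AK2), PERK (EIF2AK3) and GCN2 (EIF2AK4) phosphorylate eIF2 alpha, encoded by EIF2S1, which turns eIF2 into an inhibitor of eIF2B and lowers general translation while a few messages, such as that of ATF4, are translated more. The other main control point is the cap: eIF4E binds the 5′ cap and joins the scaffold eIF4G and the helicase eIF4A, and the 4E-binding proteins block that contact until mTORC1 phosphorylates them. Both controls act on proteins by phosphorylation, which the RNA levels given here do not measure.

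Day 0 replicate 2 stood apart from the other libraries. It had 11363 genes at 1 TPM or more, against 13016 to 13868 elsewhere, and 23.8% of its TPM went to genes of ribosomal proteins, a share of 10.2% to 14.9% in the others. Its correlation with the other day 0 libraries over genes was 0.870 and 0.875, against 0.972 between those. Results that rest on day 0 are therefore also given without it. The microRNA symbols MIR6723 and MIR4461 held 22.4% to 40.3% of the TPM of a library. The epithelial keratin KRT8 was at 1563 to 2253 TPM at day 0 and at 413 to 557 in the later libraries. KRT18 and KRT19 were also lower in all later libraries than in all day 0 libraries. VIM was at 881 to 2526 TPM. CPA1, INS, GCG and DCN, markers of acinar, islet and fibroblast cells, were listed at 0 in each library. Other markers of those cells, PRSS1, CELA3A and LUM, reached at most 0.368, 0.123 and 0.181 TPM, while COL1A1, a collagen of fibroblasts, was at 8.29 to 72.6 TPM. Of the markers of blood and endothelial cells, CD68 was at 21.3 to 68.6 TPM, while PTPRC, PECAM1 and VWF reached at most 0.176, 0.374 and 0.0488. In such bulk RNA, fewer cells of a kind and less RNA per cell cannot be told apart.

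At day 2 against day 0, 6 of the 52 tested members were called higher and 10 lower (limma, Benjamini-Hochberg adjusted p under 0.05), beside 19.2% higher and 11.5% lower of all tested genes. At day 14 against day 0, 8 were called higher and 9 lower, beside 27.5% and 6.72% of all tested genes. The median log2 change of the members was -0.17 at day 2 and 0.15 at day 14, against 0.23 and 0.44 over all tested genes. The share of members called lower was 19.2% at day 2 and 17.3% at day 14. These comparisons share the day 0 libraries and so are not independent of each other. A moderated F test over the 3 days called 17 of 52 members, beside 35.4% of all tested genes.

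When day 0 replicate 2 was left out, the counts were 10 higher and 21 lower at day 2, beside 24.7% and 23.6% of all tested genes, and 14 higher and 11 lower at day 14, beside 34.6% and 14.5%. Scaling the libraries by the median of gene ratios moved the median change of all genes from 0.23 to -0.05 at day 2 and from 0.44 to -0.05 at day 14. With it 5 members were called higher and 19 lower at day 2, beside 17.7% and 20.2% of all tested genes, and 3 higher and 20 lower at day 14, beside 15.4% and 18.3%. Weights per library gave 10 higher and 26 lower at day 2, beside 30.5% and 33.0%, and 17 higher and 18 lower at day 14, beside 40.1% and 19.7%. Members with a change close to the median of all genes can thus change sign with the scaling. Only those called in either setting are named below, so the sign of other small changes may depend on the scaling as well.

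**Figure D1:**
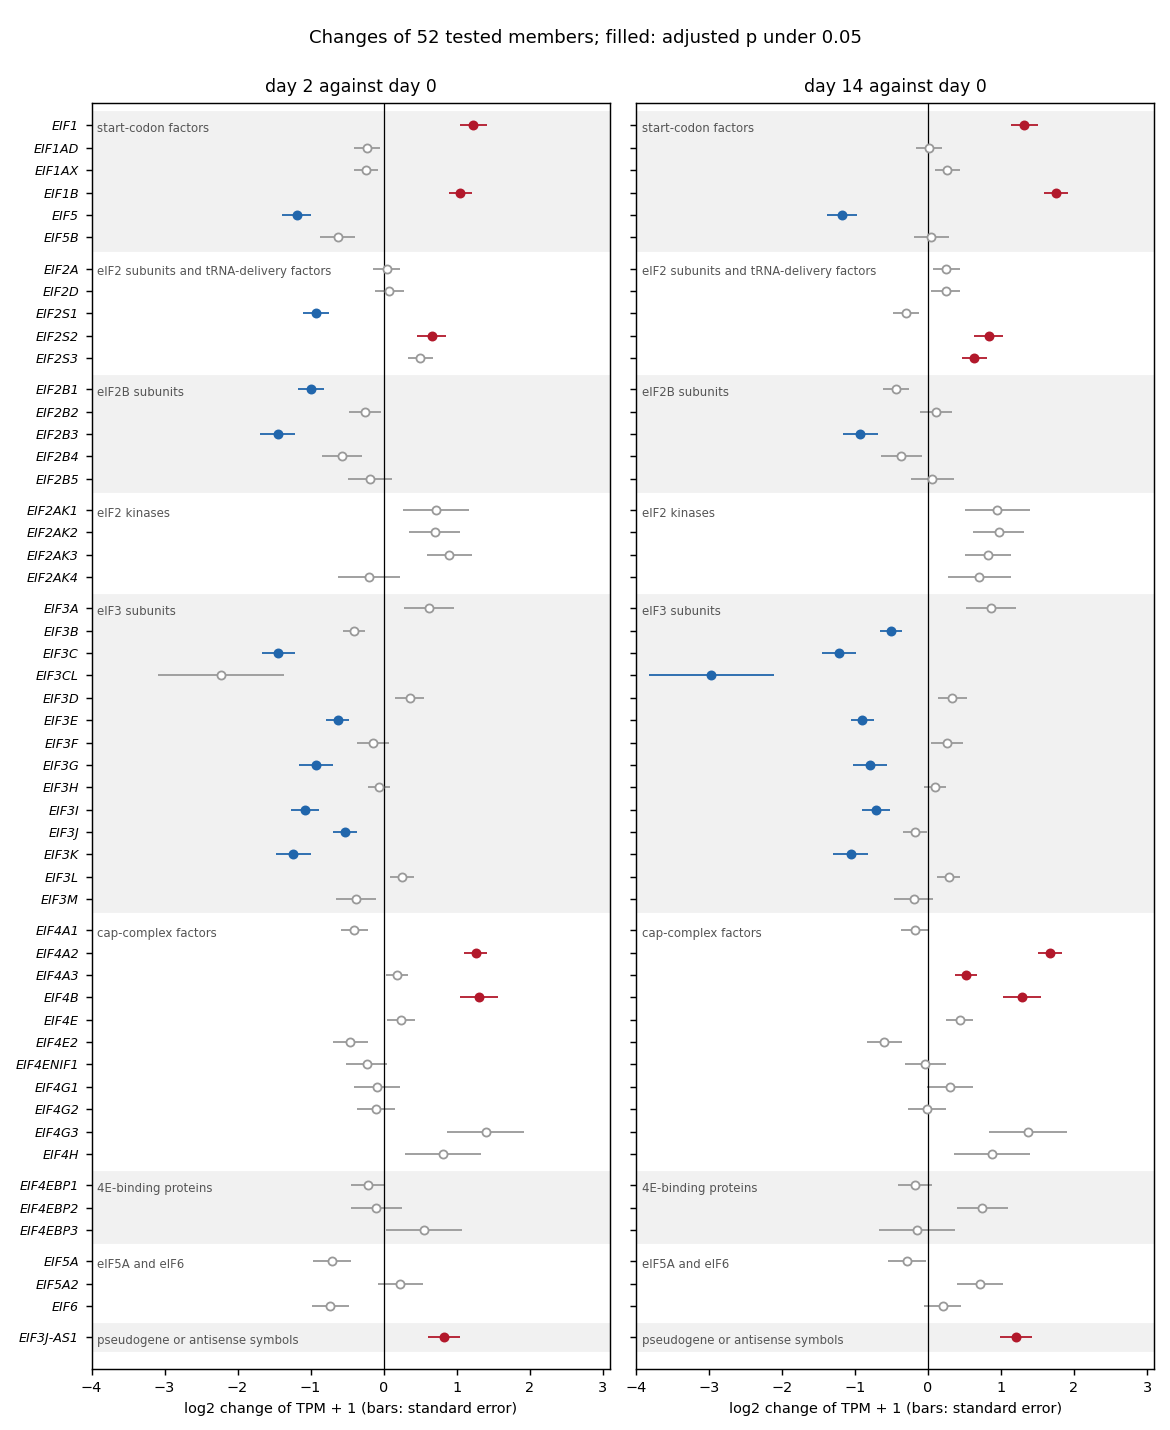
Log2 change of TPM + 1 of the 52 tested members, grouped by role, at day 2 (left) and day 14 (right) against the same 3 day 0 libraries; points are the limma estimates from 3 libraries a day and bars are standard errors. Filled points passed an adjusted p of 0.05, 6 higher and 10 lower at day 2 and 8 higher and 9 lower at day 14; no eIF3 subunit is filled to the right of 0.

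To show whether members that moved the same way share letters at their starts, the 200 bases before the listed start are printed for the 4 members with the largest called rises at day 2 and for EIF2B3 and EIF3K, the largest called falls apart from EIF3C, which has a near-identical copy. Sequences are from RefSeq on GRCh38.p14, 5′ to 3′ on the strand of the gene. Capitals mark CACGTG, the E-box bound by MYC and its relatives, or, in EIF1, ACGTG, the core of the hypoxia response element, which CACGTG also contains.
EIF4B, chr12:53006256-53006455, plus strand: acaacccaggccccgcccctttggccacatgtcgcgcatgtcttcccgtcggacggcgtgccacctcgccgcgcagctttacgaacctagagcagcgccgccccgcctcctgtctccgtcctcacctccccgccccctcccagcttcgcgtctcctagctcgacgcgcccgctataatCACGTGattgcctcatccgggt
EIF4A2, chr3:186783377-186783576, plus strand: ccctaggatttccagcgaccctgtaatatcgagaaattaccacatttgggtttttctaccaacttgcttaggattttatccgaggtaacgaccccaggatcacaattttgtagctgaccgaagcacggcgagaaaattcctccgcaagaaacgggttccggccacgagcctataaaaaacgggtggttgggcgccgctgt
EIF1, chr17:41688685-41688884, plus strand: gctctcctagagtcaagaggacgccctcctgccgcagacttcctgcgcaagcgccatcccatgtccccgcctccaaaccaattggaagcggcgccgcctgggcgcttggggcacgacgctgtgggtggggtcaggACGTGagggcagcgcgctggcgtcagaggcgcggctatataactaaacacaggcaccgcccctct
EIF1B, chr3:40309507-40309706, plus strand: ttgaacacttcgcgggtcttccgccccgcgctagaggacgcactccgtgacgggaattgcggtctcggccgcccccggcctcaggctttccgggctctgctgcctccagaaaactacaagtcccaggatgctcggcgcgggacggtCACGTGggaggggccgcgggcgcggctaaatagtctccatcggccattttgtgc
EIF2B3, chr1:44986596-44986795, minus strand: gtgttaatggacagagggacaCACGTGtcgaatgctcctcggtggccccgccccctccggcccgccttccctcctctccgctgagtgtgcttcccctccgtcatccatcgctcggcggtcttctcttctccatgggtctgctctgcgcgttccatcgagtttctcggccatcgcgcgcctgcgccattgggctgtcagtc
EIF3K, chr19:38618988-38619187, plus strand: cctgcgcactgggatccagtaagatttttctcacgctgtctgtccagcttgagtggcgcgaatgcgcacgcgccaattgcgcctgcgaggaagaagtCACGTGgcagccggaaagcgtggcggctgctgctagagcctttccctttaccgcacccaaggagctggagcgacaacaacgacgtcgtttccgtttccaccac

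In these windows CACGTG was present in members called higher (EIF1B, EIF4B) and lower (EIF2B3, EIF3K), and EIF4A2 held neither CACGTG nor ACGTG. Promoters of 47 of the 58 members were in the RefSeq table, in 62 windows of 250 bases before to 50 after a start. Searched on both strands, CACGTG was in 13 of the 62 windows (21.0%) and in 7.26% of all 35116 windows, and ACGTG, overlaps with CACGTG included, in 38.7% and 21.4%. GCGTG, another hypoxia-response core, was in 58.1% of the members' windows and 36.5% of all. TGATGNAA, the ATF4-type element, was in 1.61% of the members' windows and 3.62% of all, and its single member was EIF4E3, which was not tested. The windows of EIF1B and EIF1B-AS1 overlap and hold the same CACGTG, which was counted in both. The base composition of the members' windows and of all windows was not compared. A match is a description of the letters and not a bound site.

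Among the start-codon factors, EIF1 and EIF1B were higher and EIF5 was lower at both later days. EIF1 and its close relative EIF1B encode the small protein that keeps the scanning ribosome from stopping at a wrong start codon, and EIF5 encodes the GTPase-activating protein that acts on eIF2 when the start codon is found. EIF1 was at 426, 552 and 399.7 TPM at day 0, at 1029, 1099.6 and 1070.3 at day 2 and at 1247, 1194 and 982 at day 14. EIF1B was at 33.3, 30.1 and 29.5 TPM at day 0, at 64.5, 68.7 and 61.6 at day 2 and at 115, 114 and 91.5 at day 14. For both genes each later library lay above each day 0 library, day 0 replicate 2 included, and for EIF1B the day 14 libraries also lay above the day 2 libraries. EIF5 went the other way, from 94.6, 66.8 and 78.5 TPM at day 0 to 36.8, 28.7 and 37.8 at day 2 and 30.2, 37.6 and 36.1 at day 14, with no overlap between day 0 and either later day.

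On the log2 scale EIF1 rose by 1.23 ± 0.18 (SE) at day 2 and 1.32 ± 0.18 at day 14 (limma adjusted p = 0.00202 and 0.0016). With median-ratio scaling its changes were 0.88 and 0.71 and the calls were lost (adjusted p = 0.082 and 0.151). EIF1B rose by 1.05 ± 0.16 and 1.75 ± 0.16 (adjusted p = 0.00211 and 0.000308). EIF5 fell, with changes of -1.19 ± 0.20 and -1.18 ± 0.20 (adjusted p = 0.00309 and 0.00325). The calls of EIF1B and EIF5 held in each of the 17 settings tried. The within-library log2 ratio of EIF1 to EIF5, a pair chosen after its values were seen and so not tested, was 2.51 ± 0.46 (SD, n = 3) at day 0, 4.92 ± 0.25 at day 2 and 5.0 ± 0.30 at day 14.

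With all 9 libraries the other members of this group, EIF5B, EIF1AX and EIF1AD, did not pass the test against day 0. EIF1AD was placed in the group by its symbol, not by a known part in choosing the start codon. EIF5B, the GTPase that joins the ribosomal subunits, was at 43.7, 24.5 and 43.3 TPM at day 0, 22.2, 21.8 and 24.7 at day 2 and 42.3, 35.5 and 34.0 at day 14. Its day 2 values were close to that of day 0 replicate 2 and below those of the other day 0 libraries. Its day 2 change was -0.63 (adjusted p = 0.077), and without day 0 replicate 2 it was -0.90 (adjusted p = 0.00097). EIF1AX, which works with eIF1 in scanning, ranged from 20.5 to 38.2 TPM and EIF1AD from 14.5 to 20.6 TPM, with changes against day 0 between -0.24 and 0.26. EIF1AD, with day 0 replicate 2 left out, fell by 0.36 at day 2 (adjusted p = 0.0329). At day 14 the changes of EIF1AD and EIF5B were 0.01 and 0.04, and both turned negative with median-ratio scaling, at -0.56 and -0.54.

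**Figure D2:**
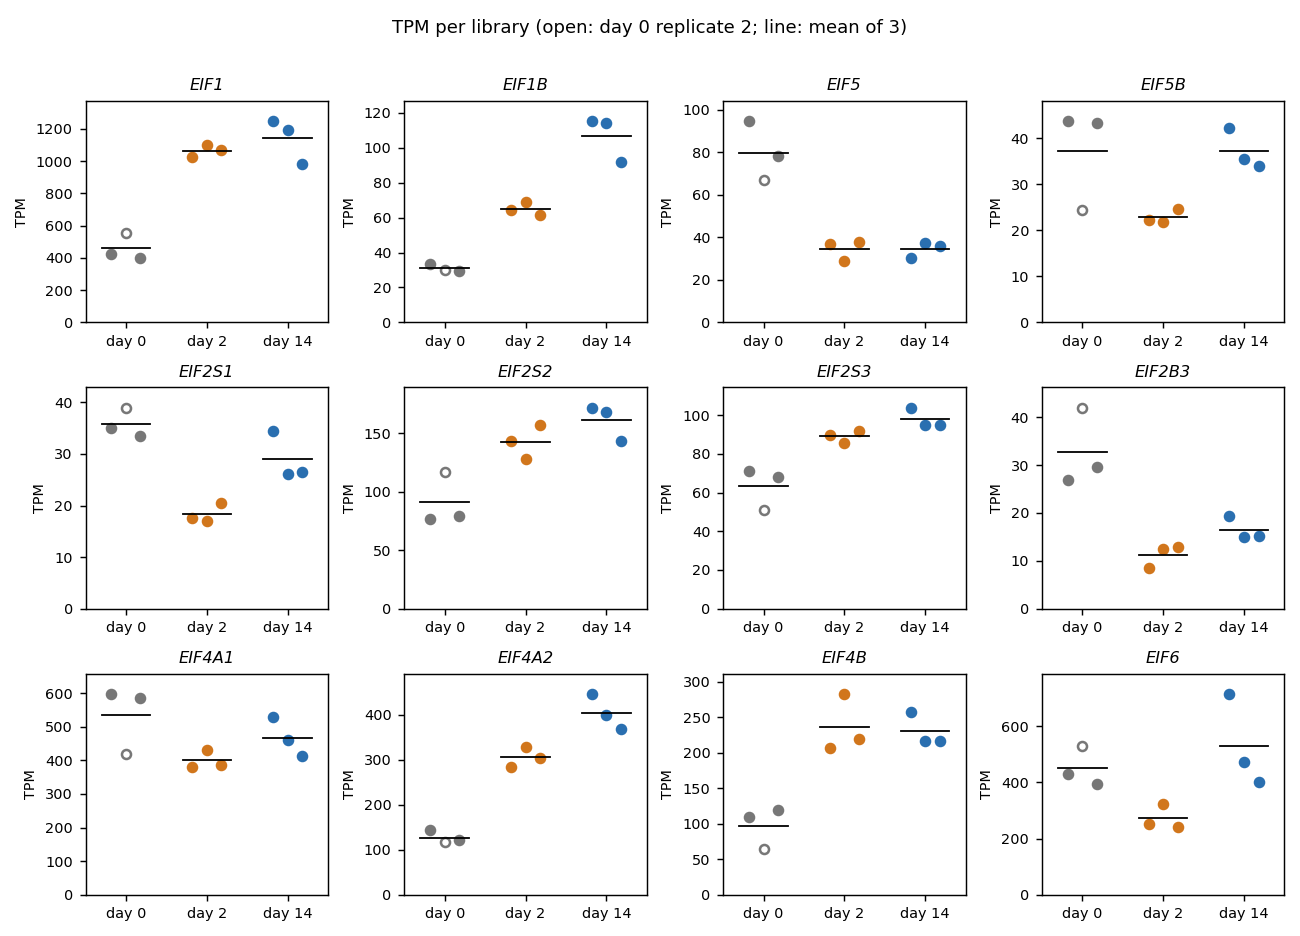
TPM (vertical axes, from 0) of 12 members in each of the 9 libraries by day; each point is a library, lines are means of 3 and the open point is day 0 replicate 2. EIF1, EIF1B, EIF4A2 and EIF4B are higher and EIF5 and EIF2B3 lower in all later libraries than in all day 0 libraries, while EIF2S1 and EIF6 are lowest at day 2.

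The 3 subunits of eIF2 moved apart. EIF2S1, the alpha subunit that the kinases phosphorylate, was at 35.0, 39.0 and 33.4 TPM at day 0, 17.6, 16.9 and 20.5 at day 2 and 34.5, 26.1 and 26.5 at day 14. EIF2S2, the beta subunit, was at 77.0, 117 and 79.2 TPM at day 0, 143, 128 and 157 at day 2 and 172, 168 and 143 at day 14. EIF2S3, the gamma subunit that binds GTP and the tRNA, was at 71.4, 51.1 and 68.1 TPM at day 0, 89.7, 85.6 and 92.1 at day 2 and 104, 94.8 and 95.2 at day 14. At day 2 the alpha subunit thus lay below each day 0 library while the beta and gamma subunits lay above. At day 14 the alpha subunit overlapped with day 0.

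EIF2S1 fell by 0.93 ± 0.18 at day 2 (adjusted p = 0.00555), a call held in each setting, and its day 14 change was -0.30 (adjusted p = 0.21). Between day 2 and day 14 it differed by 0.63 ± 0.18 (adjusted p = 0.13), or adjusted p = 0.0178 without day 0 replicate 2. EIF2S2 rose by 0.66 ± 0.20 at day 2 (adjusted p = 0.0372) and 0.83 ± 0.20 at day 14 (adjusted p = 0.0144), and EIF2S3 rose by 0.63 ± 0.17 at day 14 (adjusted p = 0.0217). EIF2S3 did not pass at day 2 (0.50, adjusted p = 0.0561) unless day 0 replicate 2 was left out (0.35, adjusted p = 0.0178). The rises were less stable than the fall of EIF2S1. With median-ratio scaling EIF2S2 changed by 0.32 and 0.23 and EIF2S3 by 0.03 at day 14, none of them called. The day 2 call of EIF2S2 was lost without any of 7 libraries (adjusted p = 0.0541 to 0.128), all but day 0 replicate 2 and day 14 replicate 1. Its day 14 call was lost without day 14 replicate 2 (adjusted p = 0.0524), and that of EIF2S3 without any day 14 library (0.0591 to 0.0629).

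The balance within the complex does not depend on the scaling of a library apart from the added 1 TPM. The log2 ratio of EIF2S2 to EIF2S1 was 1.3 ± 0.23 (SD, n = 3) at day 0, 2.89 ± 0.05 at day 2 and 2.44 ± 0.18 at day 14, and that of EIF2S3 to EIF2S1 was 0.80 ± 0.36, 2.22 ± 0.09 and 1.73 ± 0.14. No library of one day overlapped with another day in either ratio. These pairs were chosen after the values were seen and were not tested. Of these genes, 29.2% of the 31-base words of EIF2S2 transcripts and 29.6% of those of EIF2S3 also occur in other genes of GENCODE 29, mostly copies, so reads may have been split between them and their levels are uncertain to that degree.

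EIF2A and EIF2D, which can deliver initiator tRNA without eIF2, ranged from 17.6 to 27.6 TPM and from 12.0 to 19.8 TPM. The lowest value of each was that of day 0 replicate 2. Neither was called in any of the 3 comparisons.

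Of the 5 subunits of eIF2B, EIF2B1 and EIF2B3 fell at day 2 and EIF2B3 also at day 14, and none rose. EIF2B3, the gamma subunit, was at 26.8, 42.0 and 29.5 TPM at day 0, 8.57, 12.5 and 12.8 at day 2 and 19.4, 15 and 15.1 at day 14, with no overlap between any of the days. EIF2B1, the alpha subunit and part of the site that senses phosphorylated eIF2, was at 47.3, 52.3 and 50.2 TPM at day 0, 22.7, 27.1 and 24.5 at day 2 and 45.6, 32.3 and 32.7 at day 14. Its day 14 libraries lay between those of the other days. The changes at day 2 were -1.45 ± 0.24 for EIF2B3 and -0.99 ± 0.18 for EIF2B1 (adjusted p = 0.00305 and 0.00493), each called in all 17 settings. At day 14 EIF2B3 fell by 0.93 ± 0.24 (adjusted p = 0.0181), a call lost without day 14 replicate 2 or 3 (0.064 to 0.065), and EIF2B1 changed by -0.44 (adjusted p = 0.0893).

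The remaining subunits were not called. EIF2B2 ranged from 24.2 to 45.1 TPM, EIF2B4 from 21.1 to 49.4 TPM and EIF2B5, the catalytic subunit, from 20.1 to 45.1 TPM. In EIF2B2 and EIF2B5 the days overlapped. The day 2 libraries of EIF2B4, at 30.3 TPM or less, lay below those of day 0, at 31.6 or more, with a change of -0.57 (adjusted p = 0.144). In EIF2B5 the lowest value, 20.1 TPM, was that of day 0 replicate 2, against 43.6 and 45.1 TPM in the other day 0 libraries. Its day 2 change was -0.19 (adjusted p = 0.646) with that library and -0.56 (adjusted p = 0.0133) without it. At day 14 its change of 0.06 turned to -0.52 with median-ratio scaling.

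None of the 4 eIF2 kinases passed the test in any comparison of the 9 libraries. At an unadjusted p under 0.05 there was 1 at day 2, 2 at day 14 and 0 between the later days. Of the 52 tested members, 24, 24 and 8 passed that cut. The share of all tested genes at that cut is not given here. EIF2AK1, the heme-regulated kinase, was the most abundant, at 68.7, 18.7 and 73.2 TPM at day 0, 72.4, 76.5 and 78.8 at day 2 and 88.6, 90.5 and 88.5 at day 14. EIF2AK2, which senses double-stranded RNA, was at 12.4, 4.06 and 12.0, then 13.9, 16.4 and 13.7, then 17.4, 17.2 and 18.8 TPM. In both, day 0 replicate 2 lay far below the other 8 libraries, and the day 14 libraries lay above all others. EIF2AK3, which senses stress in the endoplasmic reticulum, was at 5.04, 1.88 and 5.0, then 7.37, 6.60 and 9.56, then 6.61, 8.48 and 7.03 TPM. EIF2AK4, which senses uncharged tRNA when amino acids run short, was at 12.9, 3.36 and 13.5, then 6.88, 8.74 and 6.60, then 17.1, 11.7 and 15.4 TPM. EIF2AK3 was higher at both later days than at day 0, while EIF2AK4 at day 2 lay between day 0 replicate 2 and the other day 0 libraries.

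With all 9 libraries, the day 2 changes were 0.72, 0.70, 0.90 and -0.20 for EIF2AK1 to EIF2AK4, with adjusted p of 0.245, 0.157, 0.0549 and 0.753. In the fit without day 0 replicate 2, EIF2AK3 rose by 0.54 (adjusted p = 0.0297) and EIF2AK4 fell by 0.76 (adjusted p = 0.00976) at day 2. EIF2AK1, EIF2AK2 and EIF2AK3 rose at day 14 in that fit, by 0.33, 0.51 and 0.47 (adjusted p = 0.0188, 0.00752 and 0.0487). EIF2AK4 was higher at day 14 than at day 2 by 0.90 there (adjusted p = 0.0114), and with all libraries the adjusted p of this change was 0.316. EIF2AK3 at day 2 and EIF2AK2 at day 14 were each called in 3 of the 9 fits that left out 1 library, those without a day 0 library. Whether the low kinase values of day 0 replicate 2 come from the cells or from the RNA was not tested.

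The ratio of EIF2AK3 to EIF2AK4 moves less with that library. Its log2 value was -1.20, -0.60 and -1.27 at day 0, 0.09, -0.36 and 0.47 at day 2 and -1.25, -0.42 and -1.03 at day 14. The day 2 libraries lay above all others. The difference of means was 1.09 between day 2 and day 0 and -0.97 between day 14 and day 2, each with an exact two-sided permutation p of 0.1, the smallest that 3 against 3 libraries can give.

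**Figure D3:**
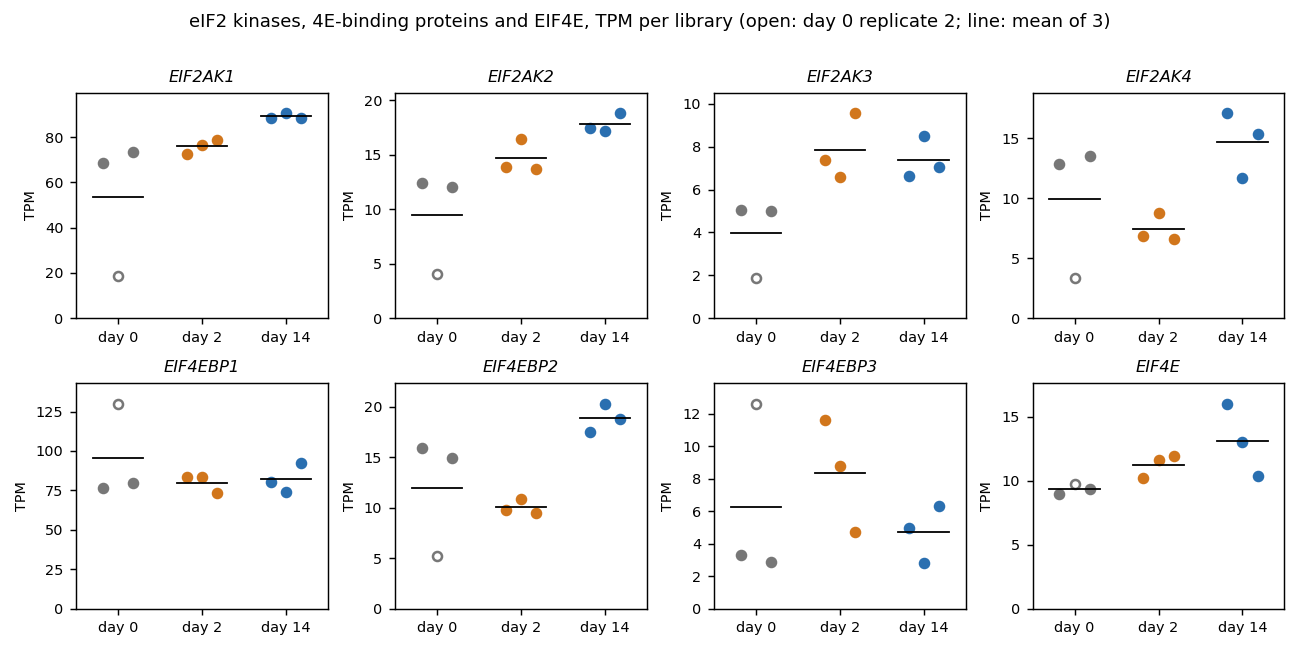
TPM (vertical axes, from 0) of the 4 eIF2 kinases, the 3 4E-binding proteins and EIF4E in each library by day; points are libraries, lines are means of 3 and the open point is day 0 replicate 2. The open point is the lowest of all 9 for each kinase and the highest for EIF4EBP1 and EIF4EBP3, and the day 2 points of EIF2AK4 lie below the filled points of both other days.

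The subunits of eIF3, the largest initiation factor, which binds the small ribosomal subunit and the messenger RNA, showed falls and no rises with all 9 libraries. With the near-copy EIF3CL, 6 of 14 were called lower at day 2 and 7 of 14 at day 14, and 0 of 14 were called higher at either day, beside 11.5% and 6.72% lower and 19.2% and 27.5% higher of all tested genes. The median change over the 14 was -0.47 at day 2 and -0.35 at day 14, against 0.23 and 0.44 over all tested genes. EIF3C, part of the core that contacts eIF1 and eIF5, was at 204, 126 and 209 TPM at day 0, 62.8, 62.5 and 66.9 at day 2 and 91.0, 71.7 and 63.5 at day 14. EIF3K, a small non-core subunit, was the most abundant, at 1253, 2283 and 1348 TPM at day 0, 645, 633 and 715 at day 2 and 828, 713 and 720 at day 14. Both were lower in all later libraries than in all day 0 libraries, and for EIF3K the highest value was that of day 0 replicate 2.

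EIF3C fell, with changes of -1.44 ± 0.23 at day 2 and -1.22 ± 0.23 at day 14 (adjusted p = 0.0028 and 0.00536), and so did EIF3K, with -1.24 ± 0.24 and -1.06 ± 0.24 (adjusted p = 0.00593 and 0.0109). EIF3I, EIF3G and EIF3E were called at both days as well. EIF3I, which binds EIF3B and EIF3G, changed by -1.08 and -0.71 (adjusted p = 0.00393 and 0.0216) from 239.9 to 297 TPM at day 0 to 118 to 132 at day 2 and 137 to 204 at day 14. EIF3G, which helps scanning, changed by -0.93 and -0.80 (adjusted p = 0.0165 and 0.0279), and EIF3E by -0.63 and -0.90 (adjusted p = 0.0175 and 0.00377). Smaller falls were called at 1 day each, of EIF3J at day 2 (-0.53, adjusted p = 0.037) and of EIF3B, the RNA-binding core subunit, at day 14 (-0.51, adjusted p = 0.0323).

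The calls differed in how many libraries they needed. Those of EIF3C and EIF3K at both days, EIF3I at day 2 and EIF3E at day 14 held in each of the 17 settings. Leaving out 1 library ended the calls of EIF3J (7 libraries, all but day 0 replicate 2 and day 14 replicate 1, adjusted p = 0.0616 to 0.127) and EIF3B (7 libraries, all but day 0 replicate 2 and day 2 replicate 2, 0.0557 to 0.112). It also ended those of EIF3G at day 2 without day 2 replicate 1 or 3 (0.0634 to 0.0694) and at day 14 without day 0 replicate 3 or day 14 replicate 2 or 3 (0.0727 to 0.098). The call of EIF3E at day 2 was lost without any day 2 library (0.0555 to 0.0711), and that of EIF3I at day 14 without day 14 replicate 2 or 3 (0.0768 to 0.0824).

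EIF3CL was listed at 4.89, 28.5 and 1.75 TPM at day 0 and at 3.57 TPM or less in each later library. Of its 31-base words, 98.5% also occur in EIF3C, so the split of reads between these symbols is uncertain. The summed TPM of both was 209, 155 and 211 at day 0, 62.8, 66.1 and 66.9 at day 2 and 91.0, 71.7 and 63.5 at day 14. The fall seen for EIF3C is present in the sum, with no overlap between day 0 and the later days. EIF3CL itself was called lower at day 14 (-2.97, adjusted p = 0.0282), a call lost without any day 14 library (0.0719 to 0.0741).

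With all 9 libraries the other subunits were not called against day 0. EIF3A, the scaffold of the complex, was at 120.3, 46.2 and 123 TPM at day 0 and at 128 to 172 in the later libraries, and without day 0 replicate 2 it rose by 0.40 at day 14 (adjusted p = 0.0184). In the same fit EIF3F rose by 0.45 at day 14 (adjusted p = 0.0461) and EIF3B fell by 0.44 at day 2 (adjusted p = 0.0149). EIF3D, which can bind the cap of some messages, ranged from 90.6 to 166 TPM, EIF3F from 285 to 493, EIF3H from 148 to 195, EIF3L from 78.6 to 119 and EIF3M from 103 to 224. Their changes against day 0 lay between -0.38, for EIF3M at day 2, and 0.36, for EIF3D at day 2. The value of 224 TPM of EIF3M was that of day 0 replicate 2, against 103 to 135 in the other 8 libraries.

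Because the subunits form 1 complex, each was also set against the median of the 13 subunits EIF3A to EIF3M in its library, which removes the scaling. EIF3K stood 3.13 ± 0.51 log2 units (SD, n = 3) above that median at day 0 and 2.36 ± 0.11 and 2.36 ± 0.09 above at day 2 and day 14. The change of EIF3K from day 0 was -0.78 at day 2 and -0.77 at day 14 with all libraries and -0.48 at each day without day 0 replicate 2. EIF3C moved from -0.02 ± 0.37 to -0.99 ± 0.07 and -0.96 ± 0.14. In the opposite direction EIF3A went from -1.0 ± 0.75 to 0.08 ± 0.10 and 0.14 ± 0.07, EIF3D from -0.62 ± 0.26 to 0.21 ± 0.11 and 0.00, and EIF3L from -0.92 ± 0.21 to -0.21 ± 0.02 and -0.36 ± 0.08. Without day 0 replicate 2 the upward move of EIF3A was 0.65 in place of 1.08 at day 2 and 0.71 in place of 1.14 at day 14. Those of EIF3D and EIF3L at day 2 were 0.67 and 0.62 in place of 0.82 and 0.71. EIF3D was itself the median in each day 14 library. EIF3F moved up by 0.33 and 0.55 (0.54 and 0.76 without that library) and EIF3H by 0.41 and 0.38. EIF3M moved by 0.08 at each day, and by 0.44 without that library. EIF3G, EIF3I and EIF3E changed by -0.47, -0.62 and -0.16 at day 2 and -0.51, -0.42 and -0.62 at day 14. The changes of EIF3B and EIF3J lay between -0.22 and 0.11. At day 0 the median of the 13 was 171, 172 and 191 TPM. It was 125, 132 and 128 TPM at day 2 and 159, 148 and 132 at day 14. In the limma fit EIF3F and EIF3H changed by -0.14 and -0.06 at day 2, so their upward moves there followed the lower median. The SD of log2(TPM + 1) over the 13 subunits was 1.02, 1.45 and 1.05 at day 0 and 0.94 to 1.0 in the 6 later libraries, the value of 1.45 being that of day 0 replicate 2. For EIF3L, 44.7% of the 31-base words occur in other genes, so its level is uncertain.

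**Figure D4:**
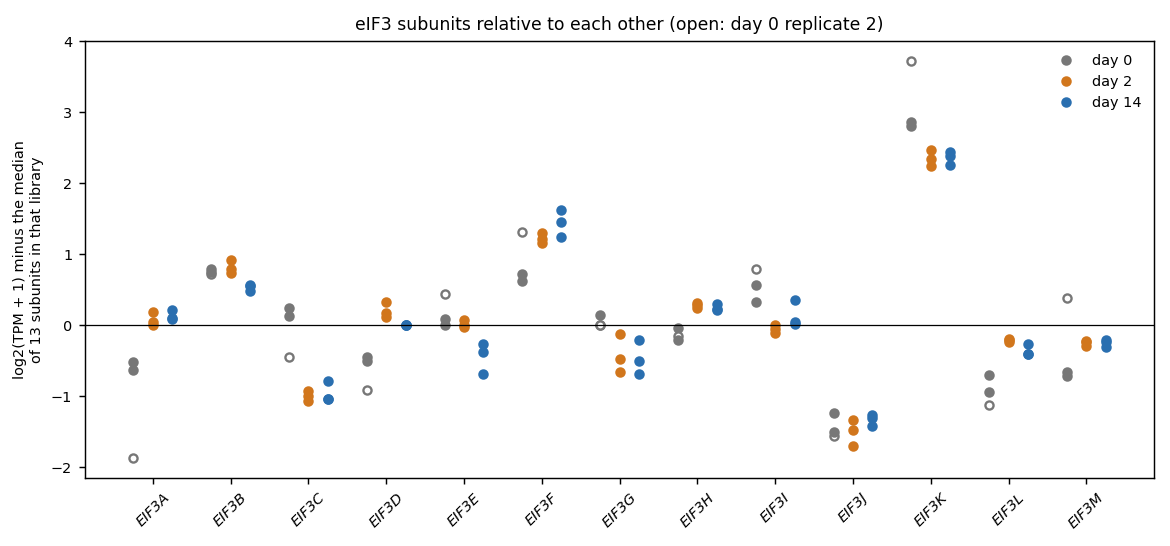
Log2(TPM + 1) of each of 13 eIF3 subunits minus the median of the 13 in the same library (vertical axis, log2 units); each point is a library, coloured by day, and open points are day 0 replicate 2. EIF3K lies furthest above 0 at each day and comes down by 0.78 to day 2 (by 0.48 without the open point). EIF3C goes from -0.02 to -0.99, and EIF3A, EIF3D, EIF3F, EIF3H and EIF3L move up relative to the median, which was itself lower in TPM at day 2.

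EIF3J-AS1, an antisense RNA of EIF3J, was at 2.40, 3.44 and 3.30 TPM at day 0, 5.94, 7.52 and 5.24 at day 2 and 10.1, 6.49 and 8.38 at day 14. It rose by 0.83 ± 0.22 and 1.20 ± 0.22 (adjusted p = 0.0221 and 0.00486). Both calls were lost with quantile normalization (adjusted p = 0.277 and 0.172) and with median-ratio scaling (0.149 and 0.0886). The day 2 call was also lost without day 0 replicate 1 or day 2 replicate 1 or 2 (0.0642 to 0.084). The strand setting of the counting is not given in the sources used here, and without strand the reads of this gene and of EIF3J cannot be told apart where they overlap.

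Of 11 tested cap-complex factors, EIF4A2 and EIF4B rose at both days, EIF4A3 was called at day 14, and none fell with all 9 libraries. The shares called higher were 18.2% at day 2 and 27.3% at day 14, close to the 19.2% and 27.5% of all tested genes. EIF4A1 and EIF4A2 encode closely related forms of the helicase that unwinds the 5′ end of the message, and EIF4B stimulates it. EIF4A2 was at 143, 117 and 121 TPM at day 0, 284, 328 and 304 at day 2 and 447, 399 and 369 at day 14, with no overlap between the 3 days. EIF4A1 was at 598, 419 and 584 TPM at day 0, 381, 432 and 387 at day 2 and 530.2, 460.2 and 413 at day 14, with overlapping days. EIF4B was at 109, 63.9 and 119 TPM at day 0, 207, 283 and 219 at day 2 and 257, 217 and 216 at day 14, with all later libraries above all of day 0.

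EIF4A2 rose by 1.26 ± 0.16 and 1.67 ± 0.16 (adjusted p = 0.000964 and 0.000388) and EIF4B by 1.31 ± 0.26 and 1.28 ± 0.26 (adjusted p = 0.00611 and 0.00659), calls held in each of the 17 settings. EIF4A1 was not called against day 0, with changes of -0.40 and -0.18 (adjusted p = 0.147 and 0.488). Its day 2 change was -0.56 without day 0 replicate 2 (adjusted p = 0.00828). EIF4A3, a related helicase that belongs to the exon junction complex, rose by 0.52 ± 0.15 at day 14 (adjusted p = 0.0309) from 125 to 151 TPM at day 0 to 182 to 211. With median-ratio scaling this change was -0.08, and its call was lost without any of 6 libraries (adjusted p = 0.0581 to 0.0909), all but day 0 replicates 2 and 3 and day 2 replicate 2.

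The shift between the helicase forms was seen within each library. The linear ratio of the TPM of EIF4A1 to that of EIF4A2 was 4.2, 3.57 and 4.82 at day 0. It was 1.34, 1.32 and 1.27 at day 2 and 1.19, 1.15 and 1.12 at day 14. The log2 ratio, with 1 TPM added to each gene, was 2.05 ± 0.22 (SD, n = 3), 0.39 ± 0.04 and 0.20 ± 0.04. There was no overlap between any of the days, and the exact permutation p was 0.1 in each comparison. In GENCODE 29, 44.8% of the 31-base words of EIF4A1, 26.8% of those of EIF4B and 12.3% of those of EIF4A2 occur in other genes, so part of their reads may have been assigned elsewhere.

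The cap-binding proteins and scaffolds did not pass the test with all 9 libraries. EIF4E, which binds the cap, was at 8.99, 9.74 and 9.34 TPM at day 0, 10.2, 11.6 and 11.9 at day 2 and 16.0, 13 and 10.4 at day 14. Each later library was above each day 0 library, with changes of 0.24 and 0.43 (adjusted p = 0.356 and 0.109). EIF4E2, a relative that represses some messages, ranged from 33.9 to 83.6 TPM, and EIF4E3 stayed at 0.119 TPM or less. EIF4G1, the main scaffold, was at 349.7, 151 and 359 TPM at day 0, 241, 280.4 and 235 at day 2 and 370.1, 326 and 293 at day 14. EIF4G3, its relative, was at 36.3, 6.57 and 33.8 TPM at day 0, 54.0, 57.8 and 54.3 at day 2 and 50.6, 61.3 and 52 at day 14. In both, day 0 replicate 2 was the lowest of the 9 libraries, and the later values of EIF4G3 lay above all of day 0.

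EIF4G3 had changes of 1.4 ± 0.53 and 1.37 ± 0.53 (adjusted p = 0.0776 and 0.0756). Leaving out day 0 replicate 2 made them 0.65 and 0.62 (adjusted p = 0.00289 and 0.0034). In that fit EIF4G1 changed by -0.49 at day 2 (adjusted p = 0.0165), and EIF4G2, which lacks the eIF4E-binding part, changed by -0.40 at day 2 and -0.32 at day 14 (adjusted p = 0.0212 and 0.0467). EIF4H, which also stimulates the helicase, was at 62.2 TPM in day 0 replicate 2 and 268 to 356 in the other 8 libraries. EIF4ENIF1, which carries eIF4E into the nucleus, ranged from 4.33 to 9.51 TPM and changed by -0.53 at day 2 without day 0 replicate 2 (adjusted p = 0.04).

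The 4E-binding proteins were not called with all 9 libraries, and 0 of 3 had an unadjusted p under 0.05 against day 0. Of the 52 tested members 24 passed that cut at day 2 and 24 at day 14. EIF4EBP1, the most abundant, was at 76.3, 129.9 and 79.8 TPM at day 0, 83.2, 83.4 and 73.3 at day 2 and 80.2, 73.8 and 92.2 at day 14. EIF4EBP2 was at 15.9, 5.20 and 14.9, then 9.74, 10.9 and 9.45, then 17.5, 20.3 and 18.8 TPM, so that the day 14 libraries were above all others. EIF4EBP3 was at 3.31, 12.6 and 2.86, then 11.6, 8.80 and 4.71, then 4.97, 2.84 and 6.31 TPM. In EIF4EBP1 and EIF4EBP3 the highest value, and in EIF4EBP2 the lowest, was that of day 0 replicate 2. Without that library EIF4EBP2 changed by -0.57 at day 2 (adjusted p = 0.00474) and EIF4EBP3 by 1.13 (adjusted p = 0.0376), while EIF4EBP1 changed by 0.03 and 0.07. Of the 31-base words of EIF4EBP3, 72.6% also occur in the read-through gene ANKHD1-EIF4EBP3, so its level is uncertain.

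EIF5A, whose hypusine-bearing protein helps ribosomes through difficult stretches, was at 645, 359 and 672 TPM at day 0, 317, 354 and 318 at day 2 and 523, 424 and 381 at day 14. EIF5A2 was far lower, at 13.5, 5.0 and 11.5, then 11.1, 10.3 and 11.8, then 16.4, 16.8 and 14.4 TPM. EIF6, which keeps the large subunit from joining early, was at 429, 529.5 and 394 TPM at day 0, 252, 325 and 241 at day 2 and 716, 472 and 401 at day 14. The day 2 libraries of EIF5A and EIF6 lay below all day 0 libraries, for EIF5A by the gap from 354 to 359 TPM. Their day 2 changes were -0.71 and -0.73 (adjusted p = 0.0687 and 0.0563), and without day 0 replicate 2 EIF5A changed by -1.0 at day 2 (adjusted p = 0.00122) and -0.58 at day 14 (adjusted p = 0.012) and EIF6 changed by -0.60 at day 2 (adjusted p = 0.0761).

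Of the 10 pairs of related members chosen for ratios, 19 of 30 comparisons of days reached the smallest exact permutation p of 0.1. After adjustment over the 30 the lowest was 0.158, so none could pass 0.05. Among the 19 were both later days against day 0 for EIF4E3 to EIF4E. EIF4E3 was at 0.119 TPM or less, so with 1 TPM added that ratio mainly follows EIF4E. Besides EIF4A1 to EIF4A2, the log2 ratio of EIF4G1 to EIF4G3 went from 3.64 ± 0.60 (SD, n = 3) at day 0 to 2.16 ± 0.09 and 2.57 ± 0.24. That of EIF5A to EIF5A2 went from 5.71 ± 0.22 to 4.77 ± 0.18 and 4.71 ± 0.18. In each of these pairs the less abundant form gained on the main one, with no overlap between day 0 and the later days. For EIF1 to EIF1B the ratio was 3.84 ± 0.28, 4.02 ± 0.07 and 3.40 ± 0.03, so that the lesser form gained at day 14, with day 0 and day 2 overlapping. The ratio of EIF4EBP1 to EIF4EBP2 was 2.98 ± 1.23 at day 0, with a value of 4.40 in replicate 2, and 2.87 ± 0.08 and 2.06 ± 0.22 later.

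**Figure D5:**
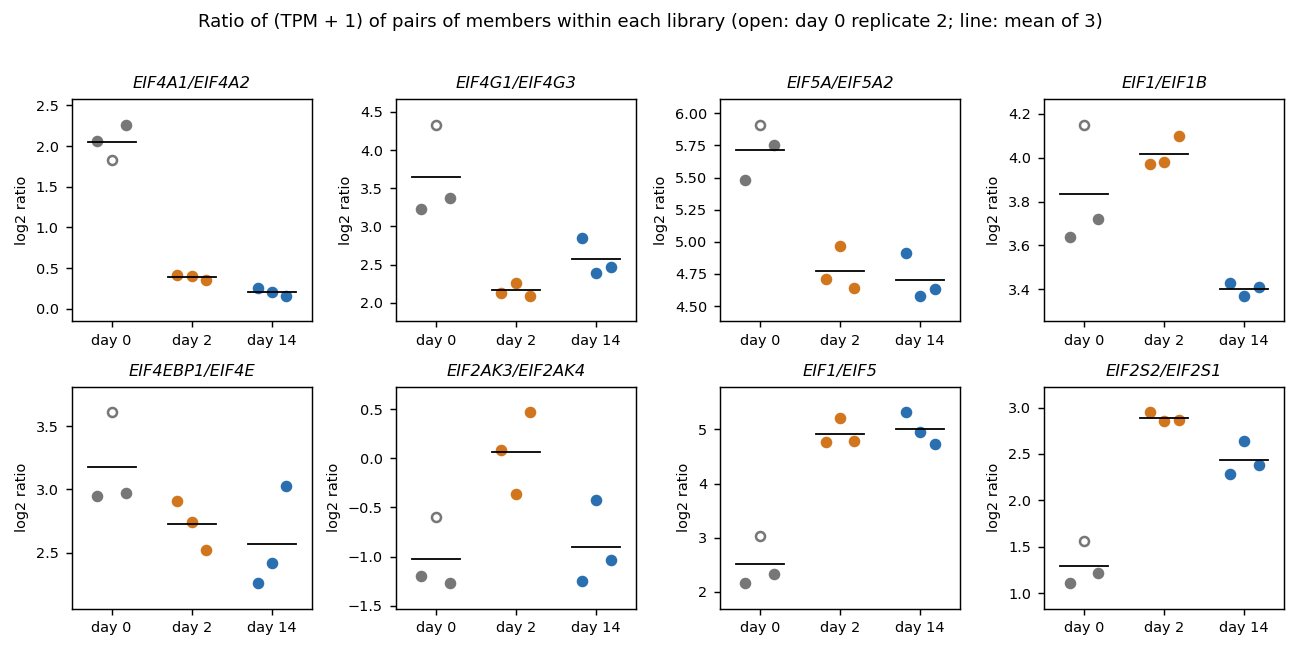
Log2 ratio of (TPM + 1) of 8 pairs of members within each library (vertical axes, different ranges) by day; points are libraries, lines are means of 3 and the open point is day 0 replicate 2. EIF4A1/EIF4A2 falls from 2.05 to 0.39 and 0.20, EIF1/EIF5 goes from 2.51 to 4.92 and 5.0, and EIF2AK3/EIF2AK4 is high at day 2 alone.

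Between day 14 and day 2 no member was called in the limma fit of 9 libraries, beside 0.417% of all tested genes. An unadjusted p under 0.05 was found for 8 members, a cut whose share of all tested genes is not given here. The median change was 0.21 for the members and 0.24 for all tested genes. The fit with weights per library called 17 higher and 1 lower, beside 31.2% and 4.56% of all tested genes. The spread of this test is pooled over all days, so day 0 replicate 2 enters it. Without that library 14 members were called higher and 0 lower, beside 23.5% and 3.86% of all tested genes. Among the 14 were EIF6, higher by 0.93 (adjusted p = 0.0232), EIF4EBP2 by 0.85 (0.00598), EIF1B by 0.70 (0.0104) and EIF5B by 0.68 (0.00958). EIF2S1 and EIF2B1, which were lower at day 2, were higher at day 14 than at day 2 by 0.63 and 0.54 (0.0178 and 0.0343) in that fit.

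Genes that act with these factors or downstream of them were read from the same fit in 5 lists. The lists were chosen with earlier results of these data known, so their counts are a description. Of all tested genes, 19.2% were called higher and 11.5% lower at day 2, and 27.5% and 6.72% at day 14. The all-gene medians were 0.23 and 0.44. Without day 0 replicate 2 these shares were 24.7% and 23.6% at day 2, and 34.6% and 14.5% at day 14. Those without any other library are not given here. Of 14 genes listed as partners of eIF2 phosphorylation, 6 were called higher and 0 lower at day 2. At day 14, 9 were called higher and 0 lower. The medians at these days were 0.69 and 0.81. The list holds genes of the stress response, ATF4, DDIT3, CEBPG and TRIB3, beside genes that act on the phosphorylation. The 6 called at day 2 were these and PPP1R15A and PPP1R15B. The largest rises were of TRIB3, a pseudokinase induced downstream of ATF4, by 3.88 ± 0.18 and 4.08 ± 0.18 (adjusted p = 3.27e-05 and 3.18e-05), and of DDIT3, the stress factor CHOP, by 3.31 ± 0.20 and 3.46 ± 0.20 (6.74e-05 and 7.09e-05). PPP1R15A, which directs a phosphatase to eIF2 alpha and was named after its values were seen, went from 21.9, 10.5 and 21.2 TPM at day 0 to 96, 97.5 and 95.1 at day 2 and 112, 118 and 112 at day 14. It rose by 2.43 ± 0.26 and 2.67 ± 0.26 (0.000465 and 0.000388). Without day 0 replicate 2, 9 of the 14 were called higher and 1 lower at day 2, and without day 14 replicate 2, 5 were called at day 14.

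Of 24 tested partners of the cap complex and the mTORC1 arm, 4 were called higher at day 2 and 5 at day 14 (16.7% and 20.8%, below the shares of all tested genes), and 0 lower. The largest rises were of MKNK2, a kinase of eIF4E, by 2.75 ± 0.38 and 2.03 ± 0.38 (adjusted p = 0.00133 and 0.00483), and of PDCD4, an inhibitor of the eIF4A helicase, by 1.33 ± 0.16 and 1.48 ± 0.16 (0.000824 and 0.000611). The median of this list was 0.16 at day 2 and 0.39 at day 14, close to that of all genes. Without day 0 replicate 2, 4 were called higher and 4 lower at day 2, and without day 14 replicate 2, 3 were called at day 14.

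Of 14 partners in ribosome loading and recycling, 1 was called higher and 4 lower at day 2, and 3 higher and 1 lower at day 14, with medians of -0.12 and 0.08. RIOK3, a kinase that binds small ribosomal subunits, rose by 1.63 and 1.93 (adjusted p = 0.000373 and 0.000236), and LTV1, which acts in the maturation of the small subunit, changed by -1.02 and -0.78 (0.0028 and 0.0083). The day 2 count of 5 dropped to 2 without day 0 replicate 3 or any day 2 library and to 3 without day 0 replicate 1 or day 14 replicate 2 or 3. Of 14 elongation and termination factors, 1 was called higher and 2 lower at each day (7.14% and 14.3%), with medians of 0.04 and 0.26. EEF1E1, a member of the multi-tRNA synthetase complex, changed by -1.10 and -0.95 (0.0151 and 0.0248), and EEF1D, part of the exchange factor of elongation, changed by -0.76 and -1.12 (0.0352 and 0.00722). The day 2 calls of this list dropped to 1 without day 2 replicate 1 or 2 and to 0 without day 2 replicate 3, and its day 14 calls to 1 without day 14 replicate 2 or 3. Without day 0 replicate 2 this list had 5 calls at day 2 and 7 at day 14.

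Of 10 mitochondrial factors, 0 were called higher and 2 lower at day 2, and 1 higher and 1 lower at day 14, with medians of -0.26 and 0.03. TUFM, the mitochondrial elongation factor Tu, changed by -1.35 and -0.94 (adjusted p = 0.00175 and 0.00798). The other calls were of TSFM, the exchange factor of TUFM, which fell by 0.85 at day 2 (0.0155), and of GFM2, a factor of mitochondrial ribosome recycling, which rose by 0.75 at day 14 (0.0408). The call of TSFM was lost without day 2 replicate 1 or 3, and that of GFM2 without any library of day 2 or day 14. Without day 0 replicate 2, 6 of the 10 were called lower at day 2. In none of the 5 lists was a gene called between day 14 and day 2 with all 9 libraries. Without day 0 replicate 2 between 3 and 6 genes of each list were called, or 21.4% to 35.7%. That fit called 23.5% of all tested genes higher and 3.86% lower between these days.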

How the data were processed

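RNA of 9 PANC-1 libraries was extracted with a Qiagen kit, per the labels' protocols, and the authors deposited TPM per gene symbol, for which the submitters' processing notes name Salmon and hg19. Version, annotation and strand setting of the counting are not given in the sources used here. A TPM value is relative within a library and keeps no depth, so the depth is unknown and no counting interval is given. Columns were matched to samples by day and replicate number. Members and lists were chosen with earlier results of these data known.

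Values were tested as log2(TPM + 1) with limma 3.58.1 in R 4.3.3, with an intensity trend, in 1 fit of all 9 libraries, two-sided. Genes had to reach 1 TPM in at least 3 libraries, and p-values were adjusted by Benjamini-Hochberg over these 14144. Changes on this scale understate those of low genes. The script was tested on simulated data. Named members were fixed by role, and partners by the largest called change, at most 2 a list and comparison, apart from those said to be added and lists with few calls. Ratios within a library used an exact two-sided permutation test of 3 against 3 libraries. Alternatives were a pseudocount of 0.1, no filter, median-ratio and quantile scaling, TPM without ribosomal protein genes, library weights, a replicate block, leaving out each library and, added after seeing the data, TPM without microRNA symbols. These make 17 settings besides the 9-library fit. Sharing of 31-base words used GENCODE 29, where 57 members matched. The search for pyrimidine-rich starts was not run. Promoters are RefSeq's on GRCh38.p14, another build than the authors', and served for sequence only.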

Additional observations from a re-analysis of the deposited data

How the results depend on the processing

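A pseudocount of 0.1 kept the counts of members called against day 0 at 6 higher and 10 lower and at 8 and 9, and testing without the filter called 11 lower at day 2. Against day 0, quantile normalization called 10 members higher and 12 lower at day 2 and 8 higher and 13 lower at day 14. Median-ratio scaling called 5 higher and 19 lower at day 2, and 3 higher and 20 lower at day 14. For it the shares of all tested genes were 17.7% and 20.2% at day 2 and 15.4% and 18.3% at day 14. Those with the pseudocount of 0.1, without the filter or with quantile normalization are not given here. Weights per library called 10 higher and 26 lower at day 2, 17 higher and 18 lower at day 14, 17 higher and 1 lower between day 14 and day 2, and 42 in the test of the 3 days together. Leaving out 1 library at a time gave 4 to 10 higher and 7 to 21 lower at day 2. At day 14 it gave 5 to 14 higher and 4 to 11 lower. It gave 0 to 14 higher between the later days and 13 to 35 over the 3 days. The highest counts of each 2 days were those without day 0 replicate 2. Of all tested genes, that fit called 24.7% higher and 23.6% lower at day 2 and 34.6% and 14.5% at day 14. Between the later days it called 23.5% and 3.86%. Shares without each other library, and those over the 3 days in these fits, are not given here. At day 14, median-ratio scaling turned EIF1AD to -0.56, EIF2B5 to -0.52, EIF4A3 to -0.08 and EIF5B to -0.54, quantile normalization turned EIF1AD to -0.39, and library weights turned EIF2B5 to -0.38 and EIF5B to -0.28. Changes of sign in members called in neither setting were not counted. The cause was not tested.

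Weights per library called 30.5% of all tested genes higher and 33.0% lower at day 2. The shares were 40.1% and 19.7% at day 14, and 31.2% and 4.56% between the later days. In that fit the partner lists had these calls at day 2, day 14 and between them, where they moved. The eIF2 phosphorylation partners had 11 at day 2 and 5 between the later days, the cap-complex partners 13, 9 and 7, the loading partners 9 at day 2 and 5 between, the elongation factors 8, 8 and 5, and the mitochondrial factors 6 at day 2 and 4 between. At day 2, median-ratio scaling gave 8 cap-complex partners and 5 mitochondrial factors, beside 17.7% higher and 20.2% lower of all tested genes. Quantile normalization gave 5 elongation and 5 mitochondrial factors, and TPM without microRNA symbols 3 loading partners. The shares of all tested genes in either setting are not given here. At day 14 the mitochondrial factors had 4 with median-ratio scaling, beside 15.4% higher and 18.3% lower of all tested genes. They had 1 without the filter or without microRNA symbols. Leaving out 1 library gave ranges at day 2 of 5 to 10 for the eIF2 partners, 3 to 8 for the cap, 2 to 6 for loading, 0 to 5 for elongation and 1 to 6 for mitochondrial factors. At day 14 they were 5 to 11, 3 to 6, 3 to 5, 1 to 7 and 1 to 2. Between the later days they were 0 to 3, 0 to 6, 0 to 5, 0 to 5 and 0 to 3. The shares of all tested genes without a library other than day 0 replicate 2 are not given here.

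Libraries of the same replicate number did not deviate together (correlations of -0.0795 to 0.0154 over 9 pairs), so the numbers were not taken as pairs. With a replicate block 4 members were called higher and 10 lower at day 2, 7 higher and 8 lower at day 14 and 14 over the 3 days, and the block gave 3 loading partners at day 2 and 1 mitochondrial factor at day 14. The shares of all tested genes called with that block are not given here. Depth is unknown from TPM, 3 libraries a day limit the precision, and RNA levels say nothing of phosphorylation.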
